A study of Mus musculus with 36 samples.

Results

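Circular RNAs (circRNAs) from genes that encode chromatin regulators were examined in the mouse hippocampus and frontal cortex. The host genes were chosen by symbol. A circRNA was included when both of its ends lay inside a protein-coding gene on the same strand in the GENCODE M21 annotation and the symbol began with Kmt, Kdm, Smarc, Arid, Setd, Hdac, Brd, Nsd, Dnmt or Ezh, with Kat, Chd or Tet followed by a digit, or was Ash1l, Ep300 or Crebbp. It was kept when it was found in at least 2 of the 3 replicates of a time point. This left 134 circRNAs of 6656 kept in all, from 49 host genes of 114 such genes in the annotation. In the hippocampus 114 of 5505 kept circRNAs belonged to these genes, in the frontal cortex 102 of 4790, and 82 were kept in both tissues.

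The study followed circRNAs over a 12:12 h light-dark cycle. Total RNA of adult male C57BL/6 mice (C57BL6/N in the study's methods) was sequenced after depletion of ribosomal RNA, with ZT1, ZT5 and ZT9 lying in the light phase, and ZT13, ZT17 and ZT21 in the dark. Zeitgeber time (ZT) counts the hours from lights on. Each of the 6 time points had 3 replicates in each tissue, which gives 18 samples per tissue or 36 together, and no sample carried a mutation or a treatment. Whole hippocampi and frontal lobes were used, the latter called cortex below, so that each value is an average over many cell types, and fewer cells of a type and less RNA per cell cannot be told apart.

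A circRNA forms when a downstream splice donor is joined back to an upstream splice acceptor, which leaves a ring of exons without free ends. By the class of their symbols, the genes considered here encode enzymes that write histone methyl and acetyl marks, and those that erase them. Others encode readers of acetylated histones, motors and subunits of complexes that move nucleosomes, or enzymes that add methyl groups to DNA or oxidise them. Many of these genes are long and rich in exons, and mutations in several of them cause neurodevelopmental syndromes. A circular read spans the back-splice junction and so counts the circle, not the messenger RNA or the protein of the host gene.

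Depth differed between samples. The circular reads listed per sample lay between 6754 and 73252 in the hippocampus (median 21923.5) and between 8107 and 34803 in the cortex (median 20301). The highest total was that of hippocampus ZT1 replicate 3, and the same 4 circles differed between the tissues with and without this sample. The smallest count above 0 was 2, so that a 0 does not separate an absent circle from a single read. The tissue labels were checked against circRNAs of regional marker genes. Prox1, Zbtb20, Grik4 and Trps1, markers of the hippocampus, together made up a median of 0.227% of the circular reads in the hippocampus samples and 0.0511% in the cortex samples. Of the markers of the cortex, Cux1 had 10 reads in the hippocampus and 37 in the cortex. Foxp1 had 75 and 85 reads, no circRNA of Cux2 or Rorb was kept, and Tshz2 went the other way, with 360 reads in the hippocampus and 91 in the cortex.

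The junctions of the most abundant circles and of those that differed between the tissues are shown first, since these 30 bases are what a circular read has to cross. They were read 5′ to 3′ from the GENCODE M21 transcripts, on the strand of the host gene. Lower case letters are the last 15 bases of the circle's final exon, and capitals are the first 15 bases of its first exon, to which they were joined. The circles of Nsd2 share their capitals, since both begin with exon 3 and differ in the exon that is joined back to it.
Kat6b exon 2: catgagaaagaccagGTCTTGGTTTCCTAA
Nsd2 exons 3 to 4: ataccaaacttaaagTGTTCTAAGAACCAA
Nsd2 exons 3 to 10: ttaactgagcatgagTGTTCTAAGAACCAA
Nsd1 exons 3 to 5: agctccctgagccagTGTCAACCGAAGAAA
Arid1a exons 2 to 4: ccctccagcttgcctTCATCCAGTCCAATG
Setd3 exons 2 to 6: tataaagtcatccagTCAGAAAATGGGTAA
Smarca1 exons 2 to 23: actaaaactccaatgAAAATCACTTCTCCA
Chd9 exon 3: tgtttacagcggcagGATTCTGATGCTTCA

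The 134 circles held 15708 circular reads of 702285 in all kept circRNAs. Shares were taken per tissue, from the 114 or 102 circles kept there, among the reads of all circRNAs kept there. The share was 2.26% ± 0.102 (SD, n = 18) in the hippocampus, between 2.08% and 2.47%. In the cortex it was 2.20% ± 0.226 (SD, n = 18), between 1.45% and 2.47%. The ranges overlapped, and the lowest value belonged to the cortex sample of replicate 3 at ZT9, which also had the fewest listed reads of its tissue. Reads were concentrated in few circles. The 12 with the most reads held 61.2% of them, and 41 circles had fewer than 20 reads over all samples. The median circle had 31.5 reads, and the median of all kept circRNAs was 31. Found in every one of the 36 samples were 4 circles, which is 2.99% of them and compares with 3.52% of all kept circRNAs. Kat6b exon 2 was the tenth most abundant circRNA of the data set by reads.

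**Figure D1:**
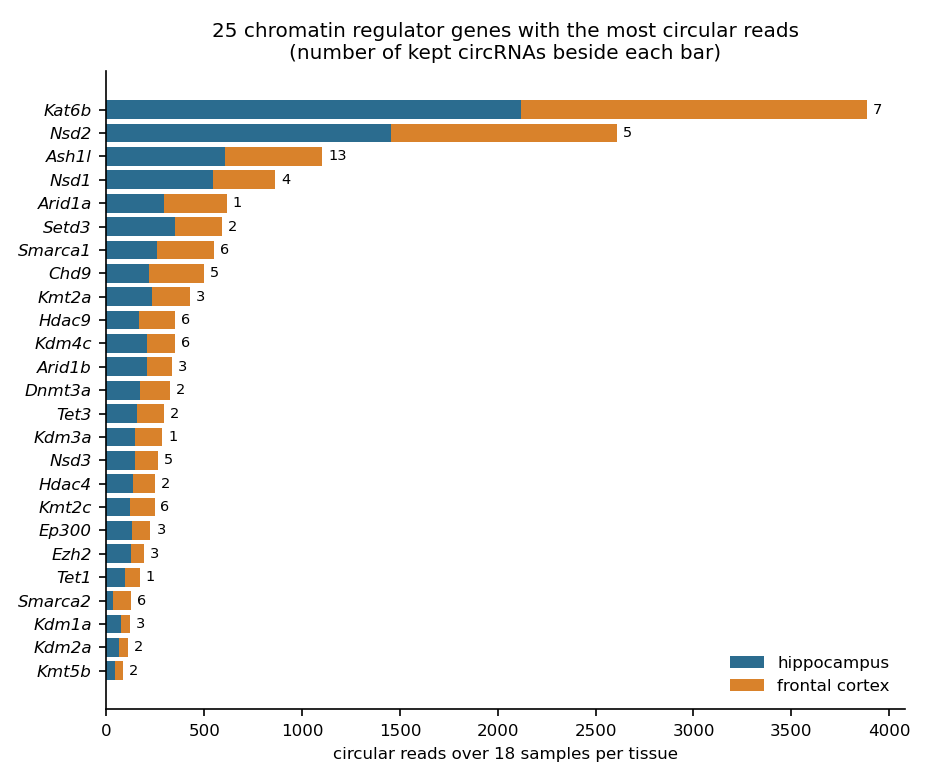
Circular reads of the 25 chromatin regulator genes with the most reads, summed over their kept circRNAs and the 18 samples of each tissue (x axis), one bar per gene, blue for the hippocampus and orange for the cortex; the number beside a bar is its number of kept circRNAs. Kat6b led with 3885 reads and Nsd2 followed with 2608, while Ash1l had the most circles, 13.

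Genes were classed by symbol, not by a known activity of each. The writers of histone methylation (Kmt, Setd, Nsd, Ezh and Ash1l) were the largest group. They comprised 51 circles from 13 of 25 annotated genes, with 6490 reads or 41.3% of the total. Nsd2 and Nsd1, related lysine methyltransferases of histone H3, had 2608 and 862 reads. Ash1l, a trithorax group methyltransferase, had 1104 reads, and Setd3, a SET domain enzyme known to methylate actin, had 593. Kmt2a of the MLL family had 426 reads and its relative Kmt2c had 246 in 6 circles. Ezh2, the catalytic subunit of a Polycomb repressive complex, had 191 reads, of which the circle of exons 2 to 15 took 76.4%.

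The acetyltransferases followed with 12 circles from 4 of 10 genes and 4182 reads, or 26.6%. Nearly all of these came from Kat6b, a member of the MYST family, with 3885 reads, while the coactivators Ep300 and Crebbp had 225 and 40, and Kat6a, the closest relative of Kat6b, had 32. The class of chromatin remodellers (Smarc, Arid and Chd) had 34 circles from 14 of 33 genes and 2450 reads, or 15.6%. Among them were Arid1a with 616 reads and Arid1b with 337, alternative subunits of the BAF complex. Smarca1, an ATPase of the ISWI type, had 548 reads and the chromodomain helicase Chd9 had 501. The BAF ATPases Smarca2 and Smarca4 had 127 and 35.

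The erasers were less abundant. The histone demethylases had 20 circles from 9 of 18 genes and 1047 reads, or 6.67%, led by Kdm4c with 351 and Kdm3a with 286. The deacetylases had 10 circles from 4 of 11 genes and 673 reads, or 4.28%, with 352 from Hdac9 and 247 from Hdac4, both of class II. The enzymes of DNA methylation had 6 circles from 4 of 8 genes and 807 reads, or 5.14%. Dnmt3a, which methylates DNA de novo, had 326 reads, and Tet3 and Tet1, which oxidise methylcytosine, had 292 and 169.

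**Figure D2:**
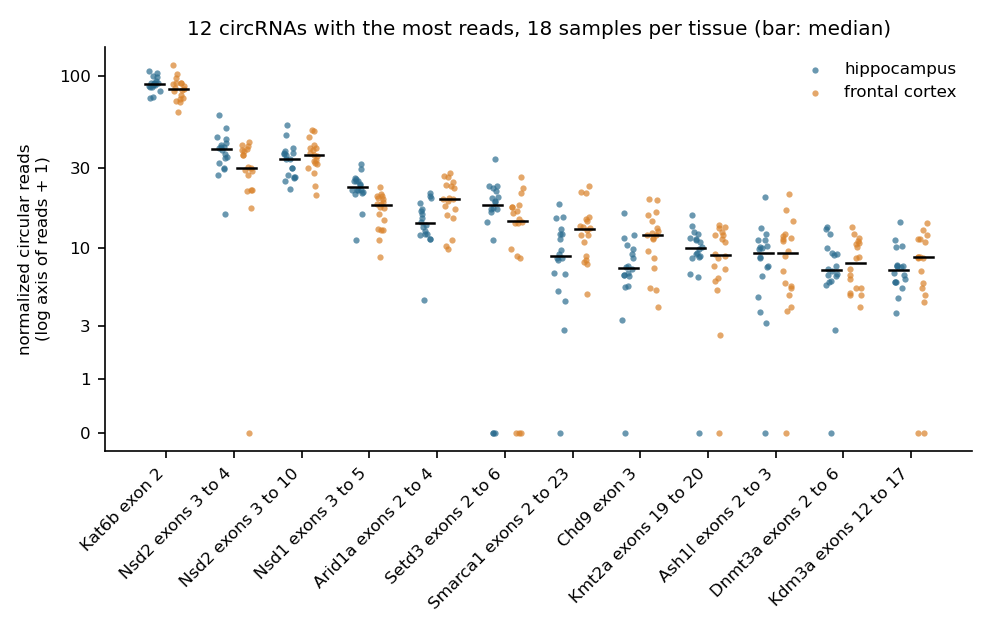
Normalized circular reads (y axis, logarithmic, plotted as reads + 1) of the 12 circles with the most reads, one point per sample, 18 samples per tissue, with a bar at the median. Kat6b exon 2 stands above the others in both tissues, with medians of 91.0 and 85.4, and 6 samples of Setd3 exons 2 to 6 sit at 0.

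Levels are given below as normalized reads, which are counts scaled to the mean library size of the 36 samples. Kat6b exon 2 (chr14:21516626-21517498, GRCm38, plus strand) is the second of 17 exons of transcript Kat6b-204 and contains the start codon, with 624 of its 873 bases coding. It lay between 74.96 and 107 normalized reads in the hippocampus (median 91.0) and between 63.1 and 116 in the cortex (median 85.4). No other circle of these genes reached the lowest of these values in any sample. The next circle of the gene, exons 4 to 12, had medians of 5.67 and 8.17. Among reads of these 2 circles, exon 2 took between 85.8% and 100% in the hippocampus samples and between 85.3% and 96.5% in the cortex samples.

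Nsd2 was shared out differently, between a pair of circles of similar level. Exons 3 to 4 (chr5:33843112-33846267, plus strand, 789 bases) lay between 16.1 and 60.3 normalized reads in the hippocampus (median 38.3). In the cortex they lay between 0 and 42.3 (median 30.1). Exons 3 to 10 (chr5:33843112-33868878, 1913 bases) lay between 22.5 and 52.8 in the hippocampus (median 33.6) and between 20.8 and 49.7 in the cortex (median 35.3). Of the reads of both circles, exons 3 to 4 took a mean of 52.8% ± 10.4 (SD, n = 18) in the hippocampus and 44.9% ± 14.1 (SD, n = 18) in the cortex, and the ranges, 23.3% to 69.0% and 0% to 62.3%, overlapped widely. The value of 0 belonged to cortex ZT9 replicate 3, in which the circle of exons 3 to 10 was found.

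Ash1l had the most circles, 13, and none of them dominated. The circle of exons 2 to 3 (chr3:88965812-88985790, plus strand, 5075 bases), which contains the start codon, held 29.6% of the reads of the gene. Its medians were 9.31 normalized reads in the hippocampus and 9.20 in the cortex. The circle of exons 4 to 5 had medians of 7.70 and 8.70. Both lay at 0 in a single sample of each tissue.

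Setd3 exons 2 to 6 (chr12:108157754-108165172, minus strand, 682 bases) was either at 0 or well above it. It was found in 15 of 18 samples of each tissue. Where it was found, the lowest value was 11.2 normalized reads in the hippocampus and 8.63 in the cortex, with counts of at least 12 and 8. The other 3 samples of each tissue had a count of 0, with no count in between. In the hippocampus the zeros were in ZT13 replicate 1, ZT17 replicate 3 and ZT21 replicate 1, and in the cortex in ZT1 replicate 3 and in ZT9 replicate 3 and ZT13 replicate 1. Of these, hippocampus ZT13 replicate 1 and cortex ZT9 replicate 3 had the fewest listed reads of their tissues. The others had 21054 and 18215 listed reads in the hippocampus (tissue median 21923.5) and 22351 and 14379 in the cortex (tissue median 20301). Whether depth played a part in the zeros was not tested.

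Many of the circles reused the same splice sites. Of the 134, 79 shared an end with another of them, 53 at the lower and 38 at the upper coordinate. All 5 circles of Nsd2 began at exon 3 of Nsd2-203 and differed in their final exon. In Hdac9 it was the downstream end that was shared, since 4 of 6 circles ended at exon 11 and carried 83.8% of the reads of the gene. In Nsd3 and Smarca2, 4 circles each began at exon 2, with 86.6% and 77.2% of the reads. In Kat6b, 4 of 7 circles ended at exon 12 and held 10.5% of the reads, while 3 began at exon 2 and held 86.4%. The edge most often shared lay at the upstream side in Nsd2, Nsd3, Smarca2 and Arid1b, and at the downstream side in Hdac9, Kdm4c and Kdm1a.

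**Figure D3:**
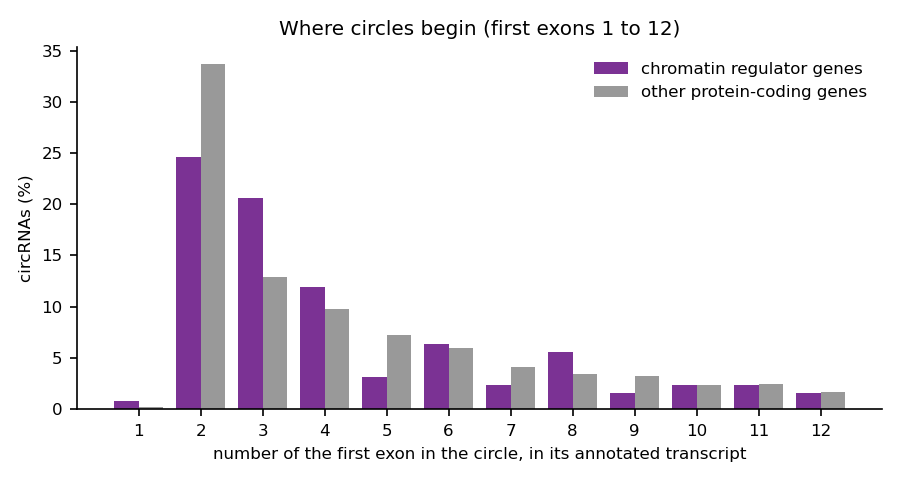
Share of circRNAs (y axis, %) by the number of the first exon in the circle (x axis, exons 1 to 12), for circles of chromatin regulator genes (purple, 126 circles that follow 1 annotated transcript) and for other kept circRNAs of protein-coding genes (grey). Exon 2 opens 24.6% of the former and 33.7% of the latter, and exon 3 opens 20.6% and 12.9%.

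In structure, 128 of the 134 circles had both ends on annotated exon boundaries, or 95.5%, against 89.2% of the 6127 other kept circRNAs of protein-coding genes. A single annotated transcript contained both boundaries for 126 circles, and 13 of these consisted of 1 exon. The median circle had 4 exons and 805.5 bases after splicing, against 567 bases in the other circRNAs. Smarca1 exons 2 to 23 was among the longer ones, with 22 exons and 2946 bases drawn from 76041 bases of the genome. Exon 2 was the first exon of 31 circles and exon 3 of 26, and a circle that began with exon 1 occurred once. That circle was Nsd2 exons 1 to 9, numbered in transcript Nsd2-208, and it begins at the same position as exon 3 of Nsd2-203. No circle contained the final exon of its transcript. The annotated start codon lay inside 33 of 125 circles, or 26.4%, against 16.7% of the others, and these 33 held 53.5% of the reads, against 19.8%. Kat6b exon 2 and both leading circles of Nsd2 are among them. These shares were described without a test, since circles of a gene share exons.

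Between the tissues, 4 circles differed. The remodellers gave 3 of them, and their only other tested circle, Arid1b exons 2 to 4, did not pass. Differences were tested with edgeR on the counts of all 36 samples, with the 6 time points of each tissue weighted equally. The filter on low counts left 710 circRNAs, of which 16 came from chromatin regulator genes, so that 118 of the 134 circles were not tested. Of the 710, 217 differed at an adj. p-value under 0.05, which is 30.6%, and of the 16 it was 4. In 1 of the 16 the level was higher in the hippocampus, against 16.5% of all tested, and in 3 it was higher in the cortex, against 14.1%. The median log2 difference was -0.05 in the 16 and 0.02 in all.

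Nsd1 exons 3 to 5 (chr13:55233895-55248077, plus strand, 2869 bases, all coding) was higher in the hippocampus. It lay between 11.1 and 31.7 normalized reads there (median 23.0) and between 8.78 and 23.1 in the cortex (median 17.99). The ranges overlapped, but 9 hippocampus samples exceeded the highest cortex sample, and the mean was higher in the hippocampus at 6 of 6 time points. The log2 difference was 0.46 (SE 0.12, edgeR adj. p-value 0.00398).

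Smarca1 exons 2 to 23 (chrX:47811158-47887198, minus strand) was higher in the cortex. It lay between 0 and 18.5 normalized reads in the hippocampus (mean 9.34 ± 4.67, SD, n = 18) and between 5.01 and 23.4 in the cortex (mean 13.2 ± 4.99, SD, n = 18). In 14 of 18 cortex samples it exceeded the hippocampus median, and the cortex mean was higher at 6 of 6 time points. The log2 difference was -0.66 (SE 0.20, edgeR adj. p-value 0.0115). A second circle of Smarca1 begins at the same acceptor, ends in exon 23 of transcript Smarca1-201, and had 15 reads in the hippocampus and 16 in the cortex. Another that begins there, exons 2 to 16, was kept in the hippocampus alone, with 24 reads there and 9 in the cortex.

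Arid1a exons 2 to 4 (chr4:133719537-133723051, minus strand, 780 bases, all coding) was the single circle kept for this gene. It lay between 4.59 and 21.3 normalized reads in the hippocampus (median 14.1) and between 9.82 and 27.8 in the cortex (median 19.6). The highest hippocampus value was exceeded by 7 cortex samples, and the cortex mean was higher at 5 of 6 time points. The log2 difference was -0.42 (SE 0.14, edgeR adj. p-value 0.0167).

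Chd9 exon 3 (chr8:90932249-90933862, plus strand, 1614 bases), which contains the start codon, lay between 0 and 16.3 normalized reads in the hippocampus (median 7.46). In the cortex it lay between 4.07 and 19.8 (median 11.9) and its mean was higher there at 6 of 6 time points. The log2 difference was -0.56 (SE 0.21, edgeR adj. p-value 0.0425). This call was the least stable of the 4, as it was lost in 19 of the 36 fits that left out 1 sample, with adj. p-values up to 0.0993.

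**Figure D4:**
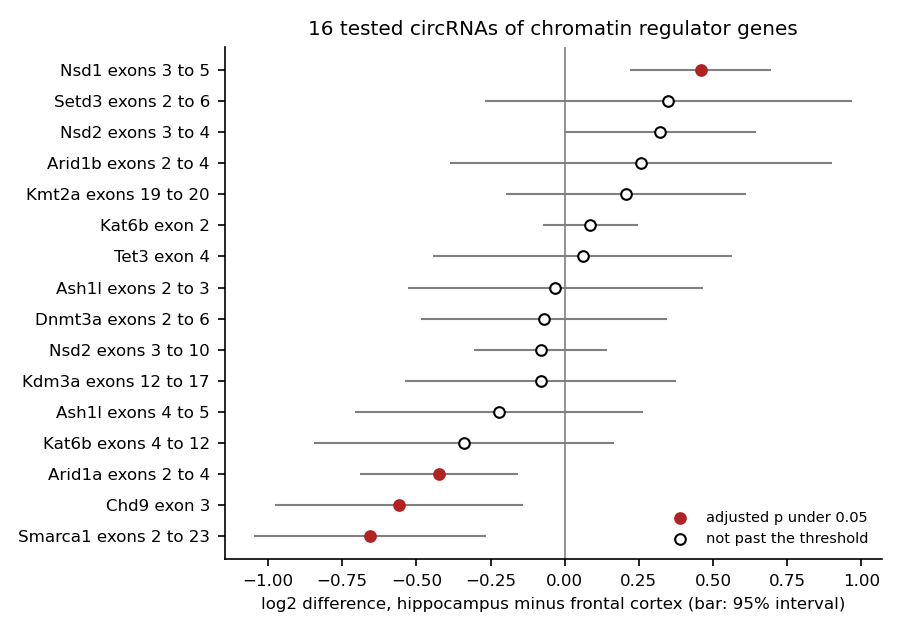
Log2 difference between the tissues (x axis, hippocampus minus cortex) of the 16 tested circles, with 95% intervals; filled red points passed an adj. p-value of 0.05 and open points did not. The 4 filled points are Nsd1 exons 3 to 5 at 0.46 and Arid1a, Chd9 and Smarca1 between -0.42 and -0.66.

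Of the 16, Kat6b exon 2 and Nsd2 exons 3 to 10 had the smallest standard errors, and neither passed the threshold. The log2 difference of Kat6b exon 2 was 0.09, with a 95% interval from -0.07 to 0.25, and that of Nsd2 exons 3 to 10 was -0.08, from -0.30 to 0.14. Nsd2 exons 3 to 4, at 0.32, had an interval from -0.00 to 0.64 and missed the threshold (edgeR adj. p-value 0.144). The interval of Setd3 exons 2 to 6, at 0.35, was the widest but one of the 16 and ran from -0.27 to 0.97. For the circles of Kmt2a, Ash1l, Dnmt3a, Tet3, Kdm3a and Arid1b and for Kat6b exons 4 to 12, the log2 differences lay between -0.34 and 0.26 and none passed. The 4 calls were also made with DESeq2, with its size factors and without TMM. None of the 4 was made when the filter on low counts was left out, where 1 other circle, Chd9 exons 3 to 4, passed. With samples of the same time point and replicate number in a block, only Nsd1 exons 3 to 5 passed.

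When the reads of all kept circles of a gene were added, 718 host genes were tested and 236 differed between the tissues, or 32.9%. Of the 19 tested chromatin regulator genes, 4 passed and they were the hosts of the same 4 circles. These sums rest largely on the same counts, so the host calls are not separate results. The circle held 100% of the reads of Arid1a, 85.0% of Nsd1, 72.6% of Smarca1 and 72.3% of Chd9. Nsd1 was higher in the hippocampus, with 27.6 ± 5.07 normalized reads against 19.3 ± 4.31 (SD, n = 18 each), a log2 difference of 0.51 (SE 0.11, edgeR adj. p-value 0.000439). Chd9 differed by -0.65 (SE 0.20, adj. p-value 0.00945) and Arid1a by -0.43 (SE 0.14, adj. p-value 0.0176). Smarca1 differed by -0.43 (SE 0.17, adj. p-value 0.0459), and this call was lost in 25 of the 36 fits without 1 sample. It was also lost without TMM. Without the filter on low counts, Nsd1 and Chd9 passed, Arid1a and Smarca1 did not, and Smarca2 did. With samples blocked as for the circles, only Nsd1 and Chd9 passed. Of the 19, 1 was higher in the hippocampus, against 17.7% of all tested, and 3 were higher in the cortex, against 15.2%. Kat6b, Nsd2 and Ash1l, the genes with the most reads, had log2 differences of 0.04, 0.09 and 0.01.

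**Figure D5:**
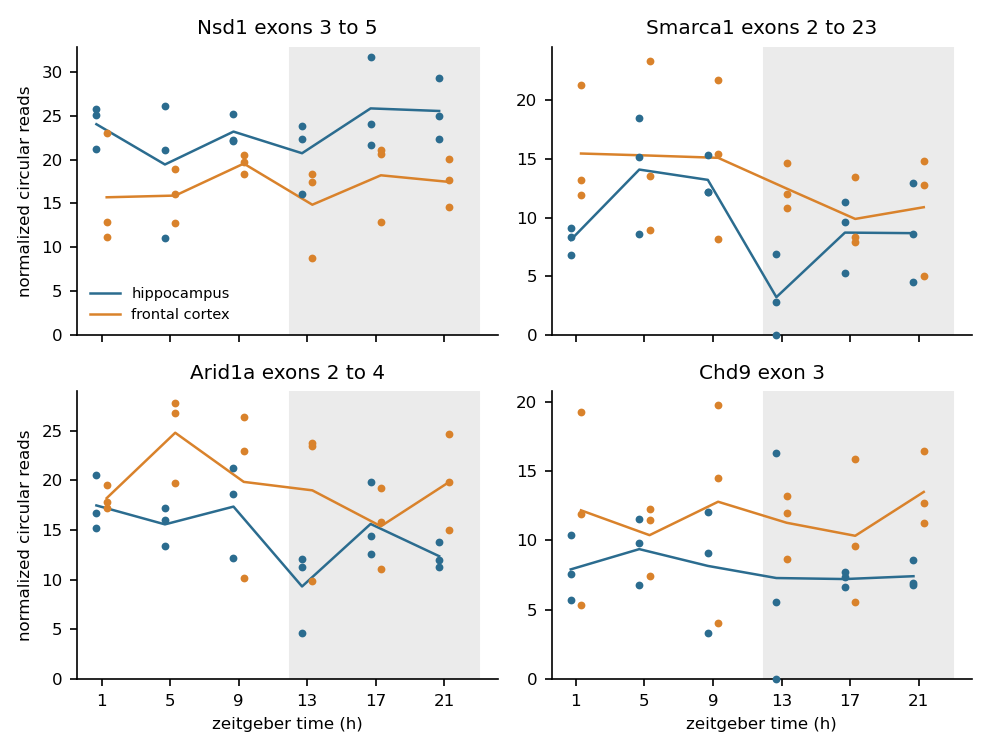
Normalized circular reads (y axis) of the 4 circles that differed between the tissues, by zeitgeber time (x axis, hours, dark phase shaded). Points are samples, 3 per time point and tissue, and lines join the means, blue for the hippocampus and orange for the cortex. The cortex mean of Chd9 exon 3 and of Smarca1 exons 2 to 23 is the higher one at each of the 6 time points, and Smarca1 is lowest in the hippocampus at ZT13.

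Over the light-dark cycle no circle of these genes passed the threshold. In the hippocampus 582 circRNAs were tested for a difference between the dark and the light phase, 16 of them from chromatin regulator genes, and 0% of all and none of the 16 were called. At an unadjusted p-value under 0.05, 4.81% of all were found, with 2 of the 16 among them. In the cortex 518 were tested, 13 of them from these genes, again with 0% called. At an unadjusted p-value under 0.05, 3.09% of all were found and none of the 13. DESeq2 also called none of these circles in either tissue.

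The smallest p-value belonged to Smarca1 exons 2 to 23. In the hippocampus it lay between 6.85 and 18.5 normalized reads in the 9 light phase samples (median 12.2) and between 0 and 12.9 in the 9 dark phase samples (median 6.89). The ranges overlapped. The 3 samples at ZT13 had 6.89, 2.79 and 0 normalized reads, from counts of 3, 3 and 0, while those at ZT9 had 12.2, 12.2 and 15.3. The log2 difference of dark against light was -0.93 (SE 0.30, unadjusted p-value 0.00579 and adj. p-value 0.703 with edgeR). In the cortex the means were 15.3 ± 5.63 in the light and 11.1 ± 3.37 in the dark (SD, n = 9 each), and the log2 difference was -0.48 (SE 0.25, edgeR adj. p-value 0.993). Arid1a exons 2 to 4 had medians of 16.7 in the light and 12.1 in the dark in the hippocampus, with a log2 difference of -0.40 (SE 0.19, edgeR adj. p-value 0.987). For Kat6b exon 2 the 95% interval of this difference ran from -0.20 to 0.27 in the hippocampus and from -0.25 to 0.23 in the cortex.

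For any difference among the 6 time points, 0% of the circRNAs in the hippocampus and 0.193% in the cortex were called, and none from chromatin regulator genes. At an unadjusted p-value under 0.05, the shares were 3.26% and 2.32%. Smarca1 exons 2 to 23 was the only one of these circles under that limit, with 0.0192 in the hippocampus (edgeR adj. p-value 0.999). A 24-h rhythm was called in 0% of the circRNAs of either tissue. Unadjusted, it was found in 2.23% and 4.83%, with none from these genes. The interaction of tissue and phase asks whether the difference between dark and light differed between the tissues. It was called in 0% of the 710 circRNAs and found unadjusted in 4.23%, none of them among the 16. The smallest p-values were those of Kmt2a exons 19 to 20 and Kdm3a exons 12 to 17, with interaction log2 values of -0.72 and -0.73 (95% intervals -1.53 to 0.09 and -1.64 to 0.18). Without cortex ZT5 replicate 2 the value of Kmt2a exons 19 to 20 was -1.22 (edgeR adj. p-value 0.933).

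At the level of host genes, 0.162% of 618 genes were called between dark and light in the hippocampus and 0% of 559 in the cortex, none of them among the 18 and 15 chromatin regulator genes tested. At an unadjusted p-value under 0.05, the shares of all were 4.85% and 3.58%, and 1 of the 18, Kmt2c, was under that limit. Kmt2c had the smallest p-value of these in the hippocampus, with a log2 difference of -0.95 (SE 0.44, edgeR adj. p-value 0.913), followed by Arid1b with -0.47 (SE 0.25, adj. p-value 0.946). The value of Kmt2c was -2.16 without hippocampus ZT13 replicate 2 (edgeR adj. p-value 0.509). In the cortex Smarca1 came first with -0.49 (SE 0.25, adj. p-value 0.975) and Hdac4 followed with 0.81 (SE 0.49, adj. p-value 0.975). The value of Hdac4 was 2.20 without cortex ZT9 replicate 2 and 1.30 without cortex ZT1 replicate 1 (edgeR adj. p-values 0.559 and 0.877).

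Genes of the same machinery that the choice by symbol leaves out, such as Atrx, Ep400, Bptf and Suz12, were counted for comparison. Of 82 such genes, 42 had a kept circRNA, with 121 circles and 9033 reads. Phf21a, which encodes a subunit of a histone deacetylase complex, led with 1354 reads, and Ep400, an ATPase that deposits a histone variant, had 989. In the tissue comparison 10 of these circles were tested and 2 were called, against 30.6% of all tested. Both were higher in the hippocampus, against 16.5% of all. They were Phf21a exons 2 to 6 with a log2 difference of 0.47 and Ep400 exon 2 with 0.61 (edgeR adj. p-values 0.00394 and 0.00547). Between dark and light none of the 9 tested in the hippocampus and none of the 7 tested in the cortex was called.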

How the data were processed

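For the hippocampus and the frontal cortex the authors deposited one table each of circular read counts, whole numbers per circRNA and sample without normalization, from BWA mapping to GRCm38 and CIRI2 calls. Groups came from the tissue and time labels. The hippocampus data hold a second column (1 in all) named like that of ZT1 replicate 3 with a letter added. It matches no label, whether it is another run of that library is not given in the sources used here, and it was not used. Host genes and exons were taken from GENCODE M21, on the GRCm38 genome that the authors used. For gene lengths of linear RNA the authors used another GENCODE release.

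The members, gene lists and tests were chosen with earlier results of these data known. The counts entered edgeR 4.0.16 under R 4.3.3 (TMM, default filter on low counts, quasi-likelihood test, Benjamini-Hochberg adjustment over all features tested, threshold 0.05), in 1 fit of 36 samples between tissues and in fits of 18 within a tissue. Host genes were tested on the sum of their kept circles. Since only circular reads set the TMM factors, a shift common to every circRNA would not be seen. Linear counts were not used. Normalized reads are counts scaled to the mean effective library size. Standard errors (SE) were derived from the log2 difference and the statistic of the quasi-likelihood test. The 95% intervals took a normal spread around the difference, so they are somewhat narrower than that test implies. Nothing in the labels ties replicates to separate animals, so p-values measure the spread between samples.

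Named circles were the 12 with the most reads, the 2 with the most in each of 7 classes, and for each comparison up to 5 past the threshold or the 2 with the smallest p-value. Named host genes were the 10 with the most reads, the 5 with the most circles, and those of each comparison by the same rule. The circle Ash1l exons 4 to 5 and the hosts of a class with their read counts were named after their values were seen. Values of some listed genes are not reported here. Replicates were compared by a chi-square test of their counts, and in none of 36 pairs did they agree within sampling noise. The chi-square per degree of freedom lay between 1.41 and 10.4. It was 10.4 and 10.3 in the pairs with cortex ZT9 replicate 3, against 1.54 between replicates 1 and 2. In the pairs with hippocampus ZT13 replicate 1 it was 5.94 and 7.24, against 3.02 between replicates 2 and 3.

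On simulated data (dispersion 0.05, 200 features changed) the tissue test found 96% of 2-fold changes among 710 circRNAs. The dark against light test found 93.5% of 2-fold changes (hippocampus) and 88.5% (cortex), and the test for a 24-h rhythm 42% and 49%. Here 200 of 582 features (hippocampus) or of 518 (cortex) were changed, all at 1 dispersion. Recovery in the real counts was not measured, so these rates do not show that 2-fold changes were absent there. Python 3.11.15, pandas 2.3.3 and matplotlib 3.10.9 were used. Alternatives were DESeq2 1.42.0, its size factors, total circular reads, no filter, a replicate block, other detection rules and leaving out each sample. The block was the replicate number within a tissue. Between the tissues it was the time point with the replicate number, 18 blocks that each paired a hippocampus with a cortex sample.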

Additional observations from a re-analysis of the deposited data

Results flagged for a closer look

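Single samples far from the other 8 of their tissue and phase (Dixon's test, critical value 0.493) were found in 5 of 64 groups examined, and chance alone gives about 1 in 20. Frontal cortex ZT9 replicate 3 stood apart in the share of circular reads from chromatin regulator genes, with 1.45% against 2.06% to 2.47% in the other light phase samples. It also had 0 normalized reads of Nsd2 exons 3 to 4, against 27.1 to 42.3. This sample had 8107 listed circular reads, the fewest of its tissue, and 4 circles differed between the tissues with or without it. Of the 36 replicate pairs, those with this sample had the largest chi-square per degree of freedom.

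Nsd1 exons 3 to 5 was low in hippocampus ZT5 replicate 1, with 11.1 normalized reads against 21.1 to 26.2 in the other light phase samples. Kdm3a exons 12 to 17 was high in hippocampus ZT13 replicate 2, with 11.2 against 4.72 to 7.68 in the other dark phase samples. Kat6b exons 4 to 12 was high in hippocampus ZT17 replicate 1, with 12.3 against 3.84 to 7.76.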

How the results depend on the processing

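Of the 165 values computed under another setting without leaving out a sample, 142 kept their side of the threshold or stayed close to the value reported, and none changed direction. Without the filter on low counts, 1 circle from chromatin regulator genes differed between the tissues in place of 4. Of all circRNAs it was 346 in place of 217. A 24-h rhythm was then called for 11 of 114 circles of these genes in the hippocampus and 6 of 102 in the cortex. Of all circRNAs it was called for 614 of 5505 and 521 of 4790. Circles were kept by detection within a time point, so for circles with few reads this test is not independent of that rule. Among the 11, Chd2 exons 6 to 16 had 4 hippocampus reads, in 2 samples. The cause of these shifts was not tested. Samples with the same replicate number did not deviate together (correlations between tissues from -0.17 to 0.15), so the numbers are not taken as pairs. With the replicate block, 1 circle (Nsd1 exons 3 to 5) and 2 host genes (Nsd1 and Chd9) differed between the tissues, and no call was gained. Leaving out 1 sample at a time gave 3 to 5 circles and 3 to 4 host genes between the tissues, 0 to 0 in every comparison over the light-dark cycle, and mean shares of 2.25% to 2.27% in the hippocampus and 2.19% to 2.25% in the cortex. The number of circles depended on the rule of detection and on depth. Detection in all 3 replicates at some time point left 56 in the hippocampus and 49 in the cortex, in at least 1 sample 415 and 386, and after thinning to the smallest total 75 in the hippocampus. Leaving Cdr1as out of the total raised the mean share in the hippocampus to 2.42%.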
